A study of Mus musculus with 8 samples.

Results

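Small nucleolar RNAs (snoRNAs) and the noncoding genes that carry them were examined in RNA-seq data of neonatal mouse granulosa cells, the somatic cells that surround the oocyte. The members are all rows of the deposited FPKM table whose symbol starts with Snora or Snord, or with Snhg and a digit, together with Gas5. FPKM is an expression value scaled by transcript length and by library size. The rule found 54 of the 11783 rows: 16 box H/ACA genes (Snora), 25 box C/D genes (Snord) and 13 host genes. The annotation GENCODE M21 has 42 Snora and 99 Snord gene identifiers, and those without a row were not analysed here. The cells came from C57BL/6 mice at postnatal day 4 (PND4, 4 libraries) or postnatal day 1 (PND1, 4 libraries), with no treatment or allele named in the labels. Between these ages primordial follicles form and a few start growing, and the comparison asks which transcripts change over that time. Whether each library stands for its own animal, litter or pool is not stated in the labels, and the p-values therefore cover only how these libraries vary.

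snoRNAs are short nuclear RNAs that guide the chemical modification of ribosomal RNA in the nucleolus. Box C/D snoRNAs direct ribose methylation by fibrillarin, and box H/ACA snoRNAs direct pseudouridylation by dyskerin. A few, such as U14 (Snord14) and U17 (Snora73), act in the cleavage of the ribosomal RNA precursor. Most mammalian snoRNAs are cut out of the introns of a host gene, which is often a ribosomal protein gene. Some hosts, the Snhg genes and Gas5, encode no protein, and several of their spliced RNAs are removed by nonsense-mediated decay when they are translated. A mature snoRNA has no poly(A) tail and is shorter than many library fragments.

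Sequences of 10 members are given as GENCODE M21 annotates them, on GRCm38. They belong to the 3 loci whose snoRNAs and host are set side by side further on, Gas5, Rpl13a and Snhg3, and to Snhg8. In the box C/D sequences, capitals mark the C box letters TGATGA where they start within the first 20 bases and the D box letters CTGA within the last 20. In the box H/ACA sequences, capitals mark ACA ending within 5 bases of the end. The 3 Gas5 snoRNAs lie on the plus strand of chromosome 1, at chr1:161038082-161038158 (Snord47), chr1:161036984-161037049 (Snord78) and chr1:161037604-161037680 (Snord80).
Snord47: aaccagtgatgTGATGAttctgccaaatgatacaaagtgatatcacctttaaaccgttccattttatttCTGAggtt
Snord78: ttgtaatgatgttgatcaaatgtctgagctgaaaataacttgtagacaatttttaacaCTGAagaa
Snord80: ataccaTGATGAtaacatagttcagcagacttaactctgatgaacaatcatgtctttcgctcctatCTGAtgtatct
The 4 snoRNAs of Rpl13a lie on the minus strand of chromosome 7, at chr7:45127382-45127464 (Snord32a), chr7:45126864-45126947 (Snord33), chr7:45126601-45126670 (Snord34) and chr7:45126346-45126435 (Snord35a).
Snord32a: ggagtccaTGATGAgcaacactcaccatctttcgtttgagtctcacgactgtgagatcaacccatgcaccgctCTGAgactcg
Snord33: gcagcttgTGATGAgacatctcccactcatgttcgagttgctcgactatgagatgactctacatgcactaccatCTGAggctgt
Snord34: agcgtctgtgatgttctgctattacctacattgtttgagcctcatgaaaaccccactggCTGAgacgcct
Snord35a: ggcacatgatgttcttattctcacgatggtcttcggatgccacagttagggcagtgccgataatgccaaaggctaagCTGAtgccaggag
The H/ACA genes Snora73a (chr4:132352775-132352979) and Snora73b (chr4:132352322-132352526) lie in Snhg3, and Snora24 (chr3:123507937-123508066) lies in Snhg8, all 3 on the minus strand.
Snora73a: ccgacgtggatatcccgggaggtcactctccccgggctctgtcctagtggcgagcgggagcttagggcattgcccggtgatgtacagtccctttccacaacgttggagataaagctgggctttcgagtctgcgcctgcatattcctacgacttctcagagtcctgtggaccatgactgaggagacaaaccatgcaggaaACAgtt
Snora73b: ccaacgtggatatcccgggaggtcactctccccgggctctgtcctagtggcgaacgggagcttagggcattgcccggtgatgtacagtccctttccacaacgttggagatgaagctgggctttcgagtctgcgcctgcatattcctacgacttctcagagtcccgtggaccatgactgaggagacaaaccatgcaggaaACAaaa
Snora24: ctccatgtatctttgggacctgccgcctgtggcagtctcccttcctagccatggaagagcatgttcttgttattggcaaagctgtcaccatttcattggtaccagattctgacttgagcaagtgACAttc

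The letters differed in frequency between the classes that the symbols name, but did not mark every member. TGATGA near the start together with CTGA near the end was found in 16 of the 25 C/D members (64.0%) and in 0 of the 16 H/ACA members. The same pair stood in 309 of the 1507 snoRNA transcripts of GENCODE M21 (20.5%) and in 0.0641% of windows of 74 bases from long noncoding transcripts. On the opposite strand it was found in 0 members. ACA at the end stood in 15 of the 16 H/ACA members (93.8%) and in 2 of the 25 C/D members (8.0%), against 46.8% of all snoRNA transcripts and 11.4% of windows of 133 bases. On the opposite strand ACA at the end stood in 1 of the 16 H/ACA and 5 of the 25 C/D members. The exception among the H/ACA members on their own strand was Snora81. The C/D members were 64 to 238 bases long with a median of 74, and the H/ACA members 127 to 205 with a median of 133. Snora73a and Snora73b were identical at 198 of 205 aligned positions (96.6%), so the authors' counting could split reads between them and both values are uncertain. The C/D pairs compared were further apart, with 69.2% identity for Snord49a and Snord49b, 68.6% for Snord42a and Snord42b, and 66.3% for Snord32a and Snord33. The whole sequences of Snord80 and Snora43 also stand in another annotated gene of the same symbol. Their values are therefore uncertain as well.

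The total FPKM over all rows was between 443333 and 505035 per library, and read depth is unknown, so no counting interval can be given. Between 222 and 1234 rows per library were listed at exactly 0, the fewest in PND1 replicate 4. Genes that every cell uses were never at 0 (25 of 25 genes), yet a 0 can be a failed estimate, so such values are called listed at 0. Of the granulosa markers 11 of 13 had rows, none of them at 0 in any library, and their summed FPKM was 924 to 1181 at PND4 and 885 to 1257 at PND1. Oocyte markers had rows for 13 of 14, with sums of 24.3 to 230.0 at PND4 and 19.8 to 98.5 at PND1, and 7 of them (Zp2, Figla, Nobox, Ddx4, Dazl, Ooep and Sohlh1) were at 0 in at least 1 library. Stromal markers (8 of 8 with rows) summed to 124 to 158 at PND4 and 94.1 to 108 at PND1, with Lum and Mfap5 at 0 in some library. Erythroid markers (3 of 7) summed to 0.268 to 11.4 at PND4 and 17.1 to 48.9 at PND1, with Hbb-bs at 0 in 1 library. Immune markers (6 of 8, of which 5 were at 0 in some library) summed to 2.92 to 68.0 at PND4 and 9.27 to 29.8 at PND1, and none of the 7 endothelial markers had a row. The part of these cell types in the values below was not tested.

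No snoRNA gene and no host gene passed the test of a difference between the ages. A filter of at least 1 FPKM in at least 4 libraries kept 14 of the 54 members: 9 of 13 hosts, 4 of 25 C/D genes and 1 of 16 H/ACA genes. Of these 14, 0 were called in either direction by limma on log2(FPKM + 1), at a Benjamini-Hochberg adjusted p under 0.05. Over all 10756 genes tested the share called was 0.0093%, a single gene outside the set. An unadjusted p under 0.05 was had by 0 of the 14 members, against 5.9% of all genes tested, and the libraries of the ages overlapped for all 54 members. They did not overlap for 4.01% of all rows, or for 4.24% of the genes tested (3.16% higher and 1.08% lower at PND4). With no filter, all 54 could be fitted: 0 were called (0.00849% of all rows) and 0 had an unadjusted p under 0.05 (5.53% of all rows). The smallest adjusted p among the 14 was 0.805, for Snhg8. In such bulk samples, fewer cells of a type and less RNA per cell cannot be told apart.

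The kept members had a median log2 difference of 0.041 for the 9 hosts and 0.56 for the 4 C/D genes, and Snora73b, the 1 H/ACA gene kept, stood at -0.18. The median over all genes tested was 0.078. With no filter the medians were 0.31 over 13 hosts, 0.38 over 25 C/D genes and 0.50 over 16 H/ACA genes, beside 0.080 over all rows. The filter behind the deposited rows is not given, so a row may be listed only through a library where it was high. The medians with no filter carry that limit. The median of the kept hosts turned to -0.034 with median-of-ratios scaling, -0.039 with upper-quartile scaling and -0.21 without PND1 replicate 4. The members kept are those that are less often at 0, so these medians describe them and carry no test. Half-widths of the 95% interval had a median of 0.65 over all genes tested, 0.88 over the kept hosts and 2.12 over the kept C/D genes, all in log2 units.

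**Figure D1:**
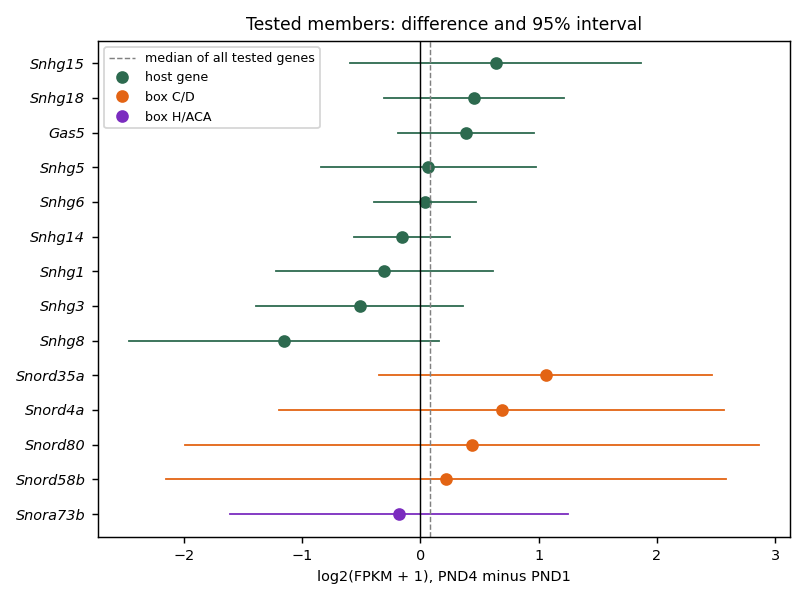
The horizontal axis gives the difference in log2(FPKM + 1), PND4 minus PND1, of the 14 members that passed the filter; points are the fitted differences, bars their 95% intervals and the dashed line the median of all genes tested. Every bar crosses 0, and the bars of the snoRNA genes are wider than those of most hosts.

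Gas5, a growth-arrest transcript and the host of 10 annotated snoRNA genes, lies on chromosome 1 from 161034422 to 161038539 on the plus strand. It had 10.7, 13.8, 8.99 and 10.8 FPKM in the PND4 libraries, against 12.1, 8.12, 8.40 and 5.25 FPKM in the PND1 libraries. PND1 replicate 1 lay among the PND4 libraries and PND1 replicate 4 held the lowest value. The means were 11.1 ± 1.99 FPKM at PND4 and 8.47 ± 2.81 at PND1 (SD, n = 4 each). The log2 difference was 0.38 (95% interval -0.19 to 0.96, limma unadjusted p = 0.169, adjusted p = 0.8291), and it was 0.20 (without PND1 replicate 4) to 0.56 when each library was left out in turn.

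Snhg1, the U22 host gene on chromosome 19, holds 8 annotated snoRNA genes, of which 4 had rows under other names and 0 are members. It had 4.82, 19.0, 3.88 and 9.45 FPKM at PND4, against 9.84, 12.4, 11.99 and 6.37 FPKM at PND1. The highest and the lowest values both came from PND4, so the PND1 range lay inside the PND4 range. The log2 difference was -0.31 (95% interval -1.22 to 0.61, limma adjusted p = 0.909), and it lay between -0.70 (without PND4 replicate 2) and -0.023 (without PND4 replicate 3) when each library was left out in turn, with -0.11 without PND4 replicate 1 and -0.49 without PND1 replicate 4.

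Snhg14 had the highest mean of the 13 hosts. It is the long transcript of the imprinted Prader-Willi and Angelman region (minus strand of chromosome 7, bases 59307924 to 59975759), and 208 snoRNA genes are annotated within it, of which 0 had a row. It had 14.2, 21.03, 18.2 and 19.5 FPKM at PND4, against 23.7, 21.8, 19.3 and 16.6 FPKM at PND1. The ages overlapped, with a log2 difference of -0.15 (95% interval -0.56 to 0.25, limma adjusted p = 0.892). Leaving out PND4 replicate 1 gave -0.044, and leaving out PND1 replicate 1 or 4 gave -0.079 or -0.24. Snhg14 shares 1803 exonic bases with Ube3a on the other strand, a ubiquitin ligase gene at 18.8 ± 3.06 FPKM at PND4 and 18.2 ± 3.44 at PND1 (SD, n = 4 each). No source used here gives a strand setting for the counting, and reads of the pair cannot be told apart.

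Snhg6, which carries Snord87, was at a similar level, with 12.04, 15.9, 19.0 and 19.7 FPKM at PND4, against 16.1, 17.5, 16.8 and 13.5 FPKM at PND1. The lowest and the 2 highest values all came from PND4 libraries. The log2 difference was 0.041 (95% interval -0.39 to 0.47, limma adjusted p = 0.978), and it turned to -0.034 with median-of-ratios scaling and -0.039 with upper-quartile scaling. Snhg5, the U50 host gene, had 3.91, 6.67, 2.30 and 6.39 FPKM at PND4, against 8.04, 5.01, 3.79 and 1.93 FPKM at PND1. Its highest and lowest values both came from PND1, and the log2 difference of 0.067 (95% interval -0.84 to 0.98) also changed sign with scaling, to -0.0032 and -0.0049. Snhg18 had 10.03, 4.85, 6.68 and 7.97 FPKM at PND4, against 7.10, 2.33, 4.88 and 6.95 FPKM at PND1. PND1 replicate 2 was the lowest of its 8 libraries, and the log2 difference was 0.45 (95% interval -0.30 to 1.21, limma adjusted p = 0.839), or 0.17 without that library.

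Snhg8, the host of Snora24, had the lowest p of the members that were kept. It had 0.0804, 1.12, 6.21 and 3.53 FPKM at PND4, against 13.2, 3.56, 5.05 and 3.64 FPKM at PND1. Both libraries numbered 1 stood apart in it, PND4 replicate 1 at the bottom and PND1 replicate 1 at the top. The means were 2.74 ± 2.73 FPKM at PND4 and 6.36 ± 4.61 at PND1 (SD, n = 4 each), with a log2 difference of -1.15 (95% interval -2.46 to 0.16, limma unadjusted p = 0.0795, adjusted p = 0.805). Leaving out each library in turn gave log2 differences between -1.58 and -0.67, the value nearest 0 being the one without PND4 replicate 1.

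Snhg3, the host of both Snora73 genes, had 2.96, 1.48, 1.06 and 2.00 FPKM at PND4, against 5.40, 1.61, 2.88 and 2.89 FPKM at PND1. The ages overlapped in the range of 1.61 to 2.96 FPKM, and the log2 difference was -0.51 (95% interval -1.39 to 0.36, limma adjusted p = 0.848), or -0.28 without PND1 replicate 1. Snhg3 lies within Rcc1 on the same strand, a nuclear exchange factor gene at 10.1 to 34.0 FPKM over the 8 libraries, and shares 705 exonic bases with Gm17300 on the other strand. Snhg15, the host of Snora9, had 0.272, 0.779, 2.33 and 3.33 FPKM at PND4, against 0, 0.0395, 1.43 and 1.198 FPKM at PND1. In both ages replicates 1 and 2 were below replicates 3 and 4, and the log2 difference was 0.64 (95% interval -0.59 to 1.87, limma adjusted p = 0.857), or 0.35 without PND4 replicate 4.

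The remaining 4 hosts did not pass the filter and were listed at 0 in 1 to 5 libraries. Snhg12, with 5 annotated snoRNA genes and none listed, had 0, 3.42, 0 and 3.62 FPKM at PND4, against 0, 0, 0 and 3.32 FPKM at PND1. It was thus either at 0 or between 3.32 and 3.62 FPKM. Snhg20 had 2.90, 0.659, 0.278 and 0.00695 FPKM at PND4, against 1.21, 0, 0.00391 and 0.0107 FPKM at PND1, with the top value of each age in replicate 1. Snhg4, whose identifier was not found in GENCODE M21, had 0, 4.21, 0 and 0.151 FPKM at PND4, against 0, 0, 0.947 and 0.0748 FPKM at PND1. Snhg9 had 3.16, 0, 0 and 0 FPKM at PND4, against 0, 0.0523, 0 and 0.658 FPKM at PND1. It overlaps Rps2 on the other strand, a ribosomal protein gene at 994 to 1180 FPKM, with 14 shared exonic bases.

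**Figure D2:**
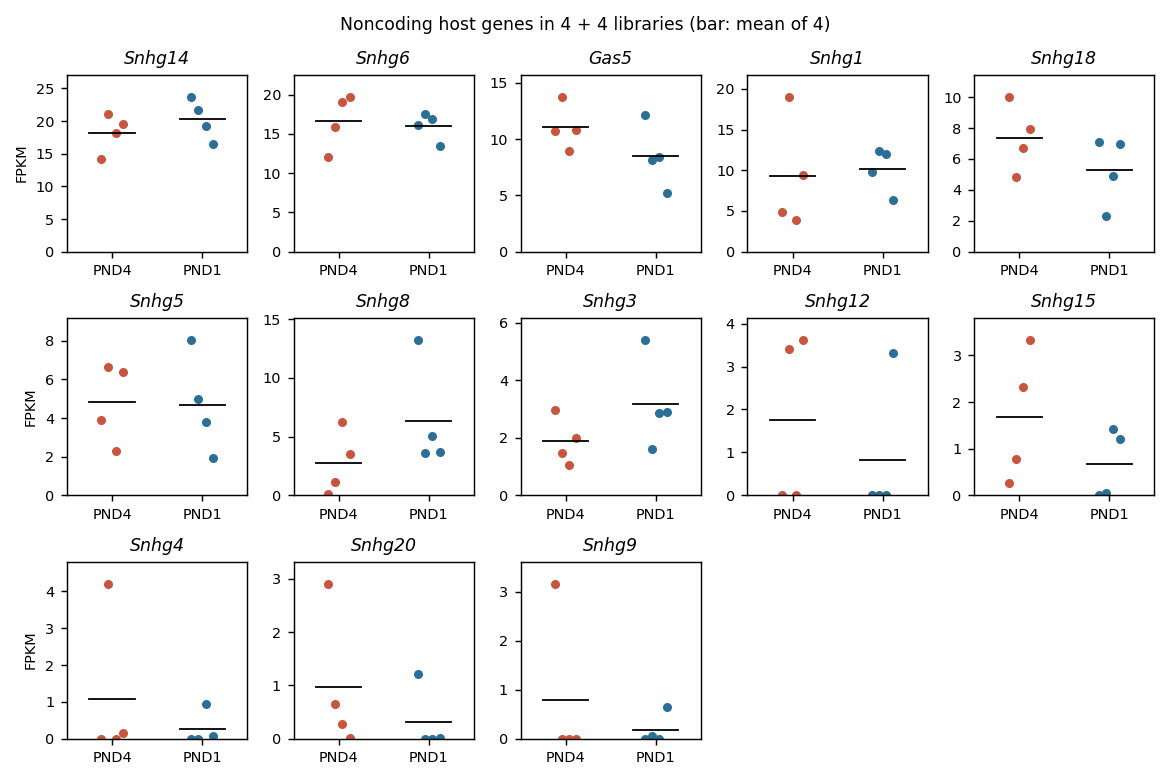
Each panel gives the FPKM of 1 host gene in the 4 PND4 and 4 PND1 libraries, with a bar at the mean of each age, panels being ordered by mean. The ages overlap in every panel, Snhg14 and Snhg6 have no value below 12.04 FPKM, and several genes in the lower rows have points at 0.

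snoRNA genes were listed at 0 in more than 50% of their values. The C/D genes were at 0 in 108 of 200 values (54.0%), 52 of 100 at PND4 and 56 of 100 at PND1. The H/ACA genes were at 0 in 71 of 128 values (55.5%), 34 of 64 at PND4 and 37 of 64 at PND1. For the host genes it was 16 of 104 values (15.4%), 7 of 52 at PND4 and 9 of 52 at PND1. No snoRNA gene of the 41 was above 0 in all 8 libraries, whereas 8 of the 13 hosts were. Over all rows 6.22% of values were at 0, over the 388 other rows of up to 300 bases 26.6%, and over the 52 rows annotated as snoRNA under other names 52.6%.

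The zeros were spread unevenly over the PND1 libraries. Of the 41 snoRNA genes, 22, 19, 24 and 21 were at 0 in the PND4 libraries, against 34, 30, 25 and 4 in the PND1 libraries. PND1 replicate 4 stood apart from all others, and in place of zeros it had 28 of the 41 genes above 0 but below 1 FPKM. That library also had the fewest zeros over all rows. Without it, 75.0% of H/ACA values and 70.7% of C/D values were at 0 at PND1, beside 53.1% and 52.0% at PND4. Without both libraries numbered 1 instead, the PND1 share was the lower one in both classes. Over both ages it was then 52.1% for H/ACA and 48.7% for C/D values. The 52 other snoRNA rows had 33, 24, 30 and 28 at 0 at PND4, against 40, 33, 25 and 6 at PND1. Over all rows the shares were 9.31%, 5.45%, 5.45% and 4.51% at PND4, against 10.5%, 7.28%, 5.39% and 1.88% at PND1. Counting values below 1 FPKM in place of exact zeros, the H/ACA shares were 70.3% at PND4 and 90.6% at PND1. The C/D shares were then 68.0% at PND4 and 77.0% at PND1. Of the 52 other snoRNA rows, 37, 38, 35 and 36 were below 1 FPKM at PND4, against 44, 43, 35 and 38 at PND1. Over all rows the counts were 1830, 1163, 1134 and 1023 at PND4, against 1867, 1522, 1178 and 921 at PND1. A higher share at PND1 was thus not particular to the members.

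Most snoRNA genes, like the other snoRNA rows of the table, had most of their summed FPKM in 1 library. In 36 of 41 rows a single library held more than 50% of the sum over the 8 (87.8%), beside 43 of the 52 other snoRNA rows (82.7%), 42.0% of the other short rows and 6.93% of all rows. The highest value of a row lay between 2.86 and 20.5 FPKM. The highest value came from PND4 for 32 of 41 rows, 12 of them in PND4 replicate 1, and for 0 rows from PND1 replicate 4. The PND4 mean was the higher one for 32 of 41 rows (78.0%), against 60.5% of all rows, 52.8% of the other short rows and 34 of the 52 other snoRNA rows (65.4%). The count was between 24 and 33 when each library was left out, with 24 without PND4 replicate 1. The deposited rows were filtered by a rule that is not given, so a row may be listed only through the library where it was high. Snora41, for example, had 4.91 FPKM in PND4 replicate 1 and was listed at 0 in every other library. These counts, and the sums below, carry that limit.

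**Figure D3:**
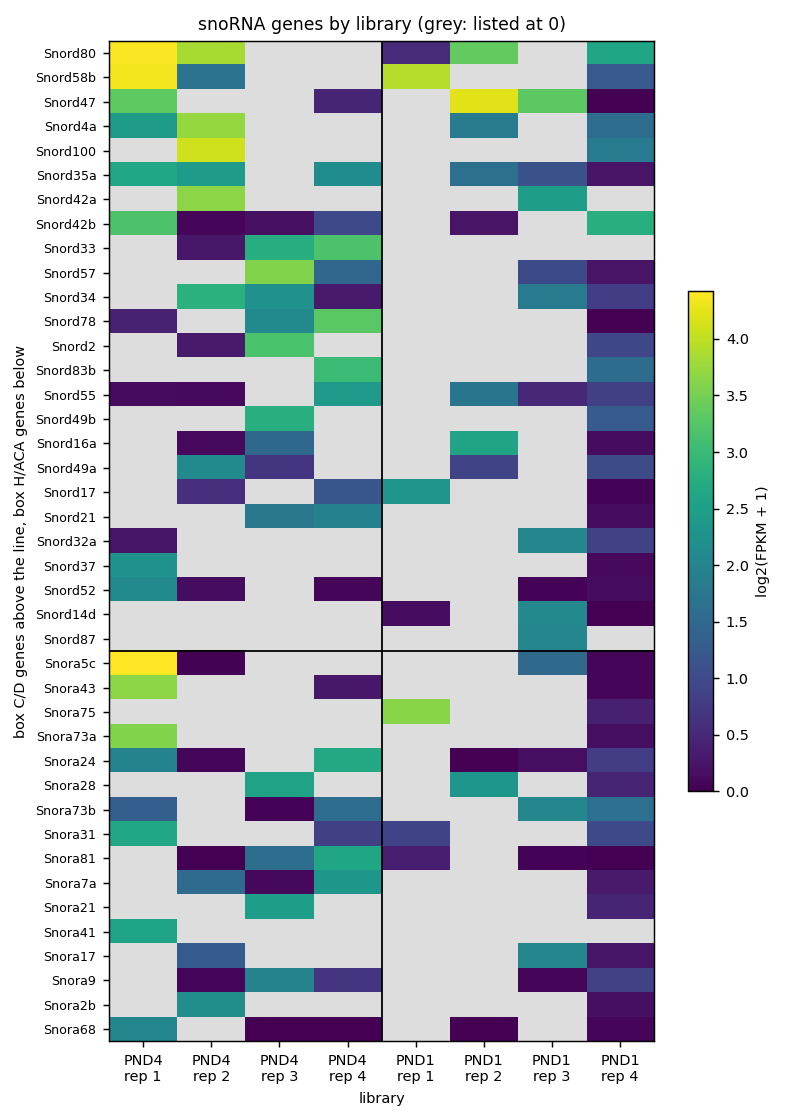
Each row is a snoRNA gene and each column a library, PND4 to the left and PND1 to the right of the line, coloured by log2(FPKM + 1), with grey for values listed at 0 and rows ordered by mean within each class. Grey covers more than 50% of the cells in both classes, bright cells are mostly alone in their row, and PND1 replicate 4 is almost free of grey but dark.

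Summed over the 41 snoRNA genes, the FPKM were 134.6, 77.8, 57.1 and 57.3 in the PND4 libraries, against 31.3, 43.9, 36.3 and 31.9 in the PND1 libraries. The ages did not overlap in this sum, which is a description of these rows and carries no test. PND4 replicate 1 had the highest sum, and the mean difference was 45.8 FPKM with it and 28.2 FPKM without it. Without Snord80, the gene with the highest mean, the sums were 114.5, 64.4, 57.1 and 57.3 at PND4, against 30.9, 34.7, 36.3 and 26.7 at PND1. They also stayed apart with median-of-ratios scaling, at 53.2 to 146.7 FPKM at PND4 and 30.8 to 46.1 at PND1. PND4 replicate 1 was also the library with the highest immune marker sum (68.0 FPKM), and the stromal marker sums were likewise higher in every PND4 library than in any PND1 library. The erythroid marker sums were lower in every PND4 library than in any PND1 library.

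The separation was not seen in the other snoRNA rows of the table. The 52 rows annotated as snoRNA under other names summed to 109.0, 69.0, 92.5 and 75.6 FPKM at PND4, against 167.7, 66.6, 86.8 and 42.2 FPKM at PND1, and the ages overlapped. The host genes overlapped as well, with sums of 65.0, 92.9, 68.9 and 86.5 FPKM at PND4, against 96.8, 72.3, 75.5 and 62.4 FPKM at PND1. Within the members, the C/D genes summed to 73.9, 70.7, 42.7 and 39.2 FPKM at PND4, against 18.7, 39.9, 28.0 and 25.4 FPKM at PND1, so that PND4 replicate 4 lay just under PND1 replicate 2. The H/ACA genes summed to 60.8, 7.10, 14.4 and 18.1 FPKM at PND4, against 12.6, 3.99, 8.39 and 6.48 FPKM at PND1. The H/ACA mean difference was 17.2 FPKM with PND4 replicate 1 and 5.36 FPKM without it.

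**Figure D4:**
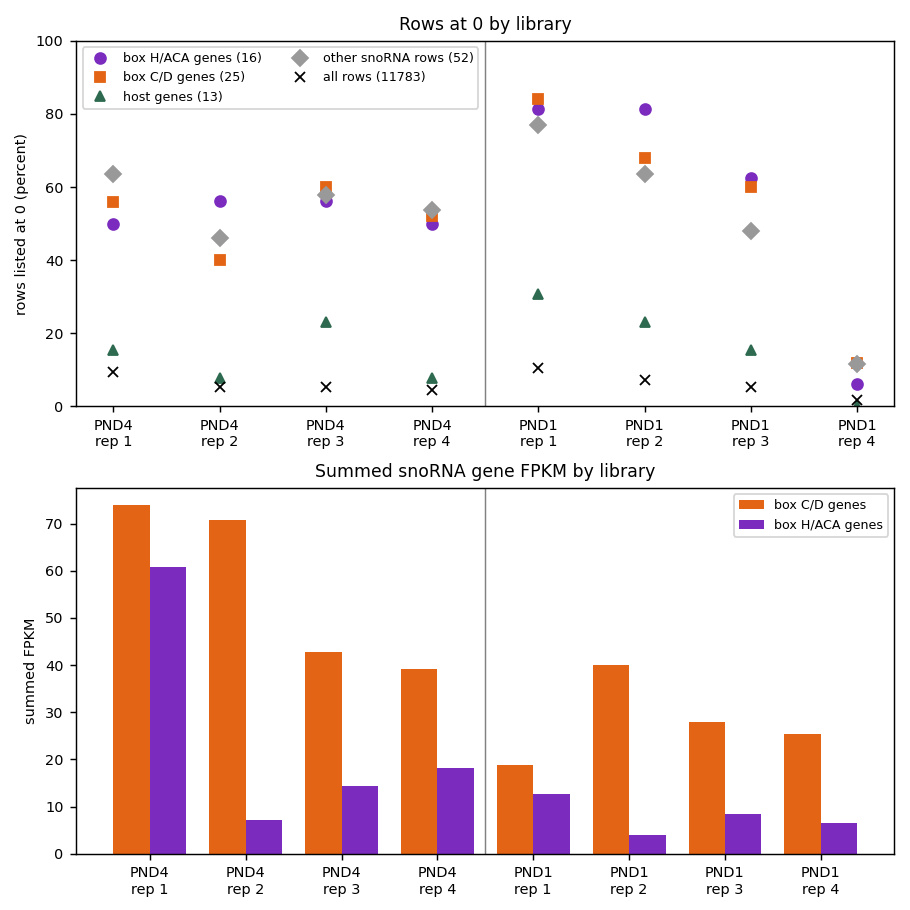
The upper panel gives the percent of rows listed at 0 in each library for the snoRNA classes, the host genes, the other snoRNA rows and all rows, and the lower panel the summed FPKM of the C/D and H/ACA genes, with the PND4 libraries on the left and the PND1 libraries on the right. PND1 replicate 4 has the lowest share of zeros in every set, and the tall H/ACA bar belongs to PND4 replicate 1.

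Among the C/D genes, Snord80 of Gas5, whose sequence also stands in another gene of that symbol, had the highest mean. It had 20.1, 13.3, 0 and 0 FPKM at PND4, against 0.445, 9.24, 0 and 5.13 FPKM at PND1. Its neighbour Snord47, which shares the Gas5 transcript, had 9.02, 0, 0 and 0.371 FPKM at PND4, against 0, 17.7, 8.93 and 0.00176 FPKM at PND1. The third listed Gas5 snoRNA, Snord78, had 0.321, 0, 3.27 and 8.78 FPKM at PND4, against 0, 0, 0 and 0.0120 FPKM at PND1. Each of the 3 thus peaked in a different library, although all lie within exons of some Gas5 transcript, and Gas5 itself was never below 5.25 FPKM. The log2 difference of Snord80, the only one of the 3 that was kept, was 0.43 (95% interval -1.99 to 2.86, limma adjusted p = 0.957), and it ran from -0.34 without PND4 replicate 1 to 1.12.

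The 4 snoRNA genes of the ribosomal protein gene Rpl13a are known from work in hamster and mouse cells for a part in the response to lipid overload. Their summed FPKM was 5.48, 10.7, 9.49 and 11.8 at PND4, against 0, 2.12, 6.79 and 1.76 at PND1, so only PND1 replicate 3 reached the PND4 range. Snord35a, the kept member of the 4, had 5.28, 4.38, 0 and 3.42 FPKM at PND4, against 0, 2.12, 1.15 and 0.181 FPKM at PND1. Its log2 difference was 1.06 (95% interval -0.35 to 2.47, limma unadjusted p = 0.127, adjusted p = 0.807), the largest positive one of the 14. It lay between 0.78 and 1.66 (without PND4 replicate 3) when each library was left out in turn. Snord33 had 0, 0.218, 5.75 and 8.11 FPKM at PND4 and was listed at 0 in all 4 PND1 libraries. Rpl13a itself stood at 324 ± 30.9 FPKM at PND4 and 323 ± 17.1 FPKM at PND1 (SD, n = 4 each), with a log2 difference of 0.0024 (limma adjusted p = 0.997). The ages overlapped more widely in the sums of the Gas5 and Rpl23a loci, with 3 listed snoRNA genes each. For Gas5 they were 29.4, 13.3, 3.27 and 9.15 FPKM at PND4, against 0.445, 26.9, 8.93 and 5.14 at PND1. For Rpl23a they were 12.5, 23.8, 0.154 and 0.956 FPKM at PND4, against 0, 2.68, 4.48 and 7.81 at PND1.

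The other C/D genes with high means behaved in the same scattered way. Snord58b, which lies in an intron of the ribosomal protein gene Rpl17, had 19.3, 2.21, 0 and 0 FPKM at PND4, against 14.2, 0, 0 and 1.35 FPKM at PND1, with the high value of both ages in replicate 1. Its log2 difference was 0.21 (95% interval -2.15 to 2.58), between -0.73 without PND4 replicate 1 and 1.09 when 1 library was left out. Snord4a, in Rpl23a, had 4.30, 12.2, 0 and 0 FPKM at PND4, against 0, 2.50, 0 and 1.98 FPKM at PND1, and its log2 difference was 0.69 (95% interval -1.19 to 2.57, limma adjusted p = 0.898). Without PND4 replicate 2 that difference was -0.043. Snord100, in Rps12, had 16.2 FPKM in PND4 replicate 2 and was listed at 0 in the other 3 PND4 libraries, against 2.60 FPKM in PND1 replicate 4 and 0 in the other 3 PND1 libraries. Snord14d, a U14 gene in the heat-shock gene Hspa8, was listed at 0 in all 4 PND4 libraries and had 0.106, 0, 3.22 and 0.00424 FPKM at PND1.

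Of the 16 H/ACA genes, 6 had their highest value in PND4 replicate 1. Snora5c, in Tbrg4, had 20.5, 0.0234, 0 and 0 FPKM at PND4, against 0, 0, 1.90 and 0.0430 FPKM at PND1. Snora43 lies on chromosome 2 with no listed gene around it, and its sequence also stands in another gene of that symbol. Snora43 had 11.5, 0, 0 and 0.217 FPKM at PND4, against 0, 0, 0 and 0.0537 FPKM at PND1. Snora75, in the nucleolin gene Ncl, had its signal in the other age, with 0 in all 4 PND4 libraries, against 11.4, 0, 0 and 0.316 FPKM at PND1. In each of these genes a single library held more than 50% of the sum over the 8 libraries.

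The U17 genes Snora73a and Snora73b, which are nearly identical in the sequences given above, did not share their pattern. Snora73a had 10.96, 0, 0 and 0 FPKM at PND4, against 0, 0, 0 and 0.119 FPKM at PND1. Snora73b had 1.51, 0, 0.0258 and 1.98 FPKM at PND4, against 0, 0, 3.14 and 2.05 FPKM at PND1. The log2 difference of Snora73b was -0.18 (95% interval -1.61 to 1.25, limma adjusted p = 0.972), with values from -0.48 to 0.20 when each library was left out. Snora24 had 2.96, 0.0509, 0 and 5.35 FPKM at PND4, against 0, 0.00479, 0.122 and 0.748 FPKM at PND1, while its host Snhg8 had the higher mean at PND1.

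By annotated position, 39 of the 41 snoRNA genes lie inside another listed gene on the same strand, the exceptions being Snora17 and Snora43. Snora73a and Snora73b lie in both Snhg3 and the protein-coding Rcc1 and were counted with Snhg3. On that choice protein-coding genes hold 28 of the 39 (22 hosts) and noncoding genes 11 (7 hosts), which are Gas5, Snhg3, Snhg6, Snhg8, Snhg15, 2410006H16Rik and 1110038B12Rik. Of the 39, 17 are intronic in every annotated transcript of that gene, 18 lie wholly and 4 partly within an exon of some transcript, where reads of host and snoRNA cannot be told apart in FPKM. In none of the 39 was the mean of the snoRNA gene above that of the gene around it, Rcc1 included. The median snoRNA mean was 0.642% of the containing gene's mean in protein-coding genes and 25.4% in noncoding genes. With both Snora73 genes set against Rcc1 in place of Snhg3, it was 0.660% over 30 genes and 15.8% over 9. The 22 protein-coding hosts had means between 19.2 and 964 FPKM and were never below 11.9 FPKM in a library. Single libraries with the snoRNA above its host were found 10 times, for 7 snoRNA genes, with the noncoding host as the gene compared. Snora73a also exceeded Rcc1 in PND4 replicate 1, with 10.96 against 10.1 FPKM. As both values share a library and the annotation, these are descriptions with no test.

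**Figure D5:**
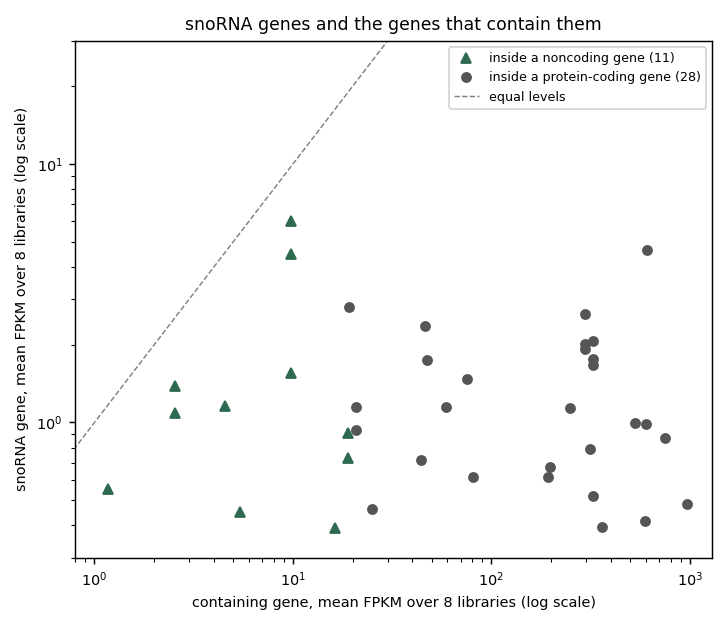
Each point is a snoRNA gene, with the mean FPKM of the gene that contains it on the horizontal log axis and its own mean FPKM on the vertical log axis, both over the 8 libraries. All 39 points lie below the line of equal levels, and the 11 in noncoding genes are mostly closer to it, with a median of 25.4% of the containing gene's mean, against 0.642% for the 28 in protein-coding genes.

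None of the genes for proteins of the snoRNA particles was called. Of 21 symbols for core and assembly proteins, 20 were tested, the untested Nhp2l1 being another symbol of the tested Snu13. Of the 20, 19 had a positive and 1 a negative log2 difference, with a median of 0.29. Fbl, the methyltransferase fibrillarin, stood at 129.9 ± 12.4 FPKM at PND4 and 119 ± 22.6 at PND1 (SD, n = 4 each), with a log2 difference of 0.14 (95% interval -0.17 to 0.46, limma adjusted p = 0.873). Nhp2, an H/ACA core protein, stood at 91.7 ± 12.2 FPKM at PND4 and 80.0 ± 9.02 at PND1 (SD, n = 4 each), with a log2 difference of 0.19 (95% interval -0.095 to 0.48, limma adjusted p = 0.8291). An unadjusted p under 0.05 was had by 3 of the 20, beside 5.9% of all genes tested, and by 1 of the 20 with median-of-ratios or upper-quartile scaling. Of all genes tested 60.3% had a positive difference.

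The genes of ribosomal RNA synthesis and processing, the targets' pathway, were all tested (29 of 29), with 27 positive and 2 negative differences, a median of 0.28 and 0 called. An unadjusted p under 0.05 was had by 6 of the 29, and by 4 with either of the other scalings, beside 5.9% of all genes tested. The nucleolar protein gene Npm1 stood at 407 ± 33.9 FPKM at PND4 and 342 ± 38.5 at PND1 (SD, n = 4 each), with a log2 difference of 0.26 (95% interval 0.011 to 0.50, limma adjusted p = 0.805), and Ncl at 79.8 ± 10.4 FPKM at PND4 and 70.9 ± 7.96 at PND1 (SD, n = 4 each). With median-of-ratios scaling the split was 24 to 5 for this list and 16 to 4 for the snoRNA particle genes, with medians of 0.21 and 0.22, while the share of all genes with a positive difference was 51.2%.

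The pathways that remove host transcripts and trim snoRNAs were also without a call. For nonsense-mediated decay 17 of 20 genes were tested, 14 positive and 3 negative with a median of 0.13. An unadjusted p under 0.05 was had by 2 of them (11.8%), beside 5.9% of all genes tested, and by 0 with either of the other scalings. Eif4a3, a subunit of the exon junction complex, stood at 93.0 ± 7.80 FPKM at PND4 and 75.7 ± 9.21 at PND1 (SD, n = 4 each; log2 difference 0.30, limma adjusted p = 0.805), and the release factor gene Etf1 at 111 ± 17.2 FPKM at PND4 and 105 ± 12.02 at PND1. For the nuclear exosome and snoRNA end processing 18 of 20 symbols were tested, the untested Mtrex and Tent4b being other symbols of the tested Skiv2l2 and Papd5. Of the 18, 13 were positive and 5 negative with a median of 0.12, and 1 had an unadjusted p under 0.05, against 0 with either of the other scalings. The exosome subunit gene Exosc9 stood at 45.3 ± 6.69 FPKM at PND4 and 42.1 ± 6.95 at PND1, and the helicase gene Skiv2l2 at 38.1 ± 5.64 FPKM at PND4 and 43.5 ± 5.45 at PND1 (SD, n = 4 each). The 22 protein-coding hosts had 21 positive differences and 1 negative with a median of 0.11, but 13 and 9 with a median of 0.035 under median-of-ratios scaling, where the decay list stood at 10 and 7.

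In the authors' deposited table of the comparison, 0 of the 54 members had a q-value under 0.05, as did 0 of all 11783 rows. A p-value under 0.05 was given there to 1 of the 54 members and to 6.55% of all rows. The member was Snhg20, with p = 0.0309 and q = 0.742 in the authors' deposited table. The authors' deposited table gives Snhg20 a log2 ratio of PND1 over PND4 of -0.77, that is, higher at PND4. No source used here names the test behind the authors' deposited table.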

How the data were processed

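Granulosa cells were isolated and their RNA purified on columns made for small inputs before standard Illumina library preparation, per the labels' protocols. The submitters' processing notes name Trim Galore for trimming, HISAT2 for alignment and the build GRCm38, without versions. The authors deposited FPKM values of 8 libraries, 4 per age, in a table of 11783 rows named as filtered, with a score column per row deposited by the authors that holds the sum of the 8 values and was not used. No source used here gives the program, annotation or strand setting behind the FPKM values, or the filter. The authors' second deposited table holds, for each gene, a PND1 over PND4 ratio (fold) with its log2 and a p-value and q-value from an unnamed test.

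Values were taken as log2(FPKM + 1), a scale that understates changes of low genes. A filter of at least 1 FPKM in at least 4 libraries left 10756 rows. They were fitted as PND4 minus PND1 by limma 3.58.1 (R 4.3.3) with the prior variance depending on the mean, and Benjamini-Hochberg adjustment covered all of them, at a threshold of 0.05. The fit was tested on simulated data. Low values were searched for whole reads over many candidate read units. At the best unit of each library, 26.6% to 32.8% lay within 0.1 of a multiple. Chance gives 20% for a single fixed unit, and the chance level of the best unit was not computed. Reads were not recovered, and depth is unknown. Zeros, sums and medians over members are descriptions without a test.

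GENCODE M21 (GRCm38) gave positions, lengths and sequences, and held 11774 of 11783 identifiers and 53 of 54 members. A snoRNA gene was placed in the listed gene on the same strand that contains it, the noncoding one where a protein-coding gene contains it too. Motifs were searched on both strands. Figures were drawn with matplotlib 3.10.9.

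The members and gene lists were chosen with earlier results of these data known. The rule for named genes took all hosts, the 5 genes of each snoRNA class with the highest mean, the kept genes of each class with the 2 largest and 2 smallest log2 differences, and the 2 members of each pathway list with the highest mean. Snord14d, Snord33, Snord78, Snora41, Snora81 and the other members of named loci were chosen after their values were seen. Alternatives changed the scaling, the filter or the pseudocount, added the replicate number as a block, or left out single libraries. The scalings of the sums, the zeros without PND1 replicate 4 or without both libraries numbered 1, the leave-one-out sums and row counts, and the comparison with Rcc1 were added after seeing the data.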

Additional observations from a re-analysis of the deposited data

Results flagged for a closer look

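The libraries of each age were examined for 28 of the members whose values are described singly, 12 other genes with values in the text and 7 sums or counts over the classes. An age was marked where the gap between the highest or lowest of its 4 libraries and the next, divided by the range, was above the 95% critical value of Dixon's test for 4 values. Of 94 groups tested, 23 were marked, where chance marks about 5% of groups of normally distributed values, and rows with 3 libraries at 0 are marked by their construction. Snora41 and the members not described singly were not examined. Every mark on a member was on the highest library of its age. The 1 mark on another gene was on the lowest, Ncl at 59.01 FPKM in PND1 replicate 2. No explanation was tested.

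Among the hosts the marked values were 4.21 FPKM for Snhg4 in PND4 replicate 2 and 0.947 in PND1 replicate 3, 3.16 FPKM for Snhg9 in PND4 replicate 1 and 0.658 in PND1 replicate 4, 3.32 FPKM for Snhg12 in PND1 replicate 4, 1.21 FPKM for Snhg20 in PND1 replicate 1, and 13.2 FPKM for Snhg8 in PND1 replicate 1, where the other 3 libraries of Snhg8 lay between 3.56 and 5.05 FPKM.

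Among the H/ACA genes they were 20.5 FPKM for Snora5c in PND4 replicate 1 and 1.90 in PND1 replicate 3, 11.5 FPKM for Snora43 in PND4 replicate 1 and 0.0537 in PND1 replicate 4, and 10.96 FPKM for Snora73a in PND4 replicate 1 and 0.119 in PND1 replicate 4. Snora75 was marked at 11.4 FPKM in PND1 replicate 1 and Snora24 at 0.748 FPKM in PND1 replicate 4.

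Among the C/D genes they were 19.3 FPKM for Snord58b in PND4 replicate 1 and 14.2 in PND1 replicate 1, 16.2 FPKM for Snord100 in PND4 replicate 2 and 2.60 in PND1 replicate 4, and 9.02 FPKM for Snord47 in PND4 replicate 1. Snord14d was marked at 3.22 FPKM in PND1 replicate 3 and Snord78 at 0.0120 FPKM in PND1 replicate 4.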

How the results depend on the processing

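The number of members called was 0 under every alternative run, and over these alternatives the adjusted p of the 14 tested members lay between 0.751 and 1.00. The number of genes called in the whole table was 1, except for 0 with a filter of 1 FPKM in all 8 libraries, which left no snoRNA member to test. The median log2 difference of the hosts, 0.041, was 0.31 with no filter and lay between -0.21 (without PND1 replicate 4) and 0.12 when 1 library was left out. Host values below 1 FPKM made up 28.8%, against 15.4% at exactly 0. Of 203 values of single members under alternatives, 21 changed sign, in 6 members, none of which was called. Snhg5 was -0.0032 and Snhg6 -0.034 with median-of-ratios scaling, and -0.0049 and -0.039 with upper-quartile scaling. Leaving out 1 library gave -0.21 to 0.33 for Snhg5, -0.043 to 0.18 for Snhg6, -0.48 to 0.20 for Snora73b, -0.34 to 1.12 for Snord80, -0.73 to 1.09 for Snord58b and -0.043 to 1.199 for Snord4a. The cause of these changes was not tested. The median snoRNA mean relative to the noncoding gene around it, 25.4%, was 15.8% when both Snora73 genes were set against Rcc1, which leaves 9 genes in place of 11.

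Deviations of same-numbered libraries of the ages correlated at 0.046, -0.0088, 0.032 and 0.12, and those of the other pairs at -0.14 to 0.11. Rows at 0 fell with rising replicate number in both ages, apart from a tie of PND4 replicates 2 and 3. They were 1097, 642, 642 and 531 at PND4, against 1234, 858, 635 and 222 at PND1. Whether same-numbered libraries belong together was not tested further. With the replicate number as a block, 1 gene was called in the whole table and 0 members, and no call changed.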
